A study of Homo sapiens with 40 samples.

Results

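The genes described here are 49 genes of mitosis and the spindle: motor kinesins, spindle assembly proteins, mitotic cyclins and kinases, spindle checkpoint and kinetochore proteins, the chromosomal passenger complex, anaphase regulators, cytokinesis proteins, the transcription factors FOXM1 and MYBL2, and the proliferation genes TOP2A and MKI67. They were taken by symbol from the platform annotation. Of the 49, 48 had a probe set annotated to that gene alone, among 18417 genes measured in this way. CENPA, the histone variant of the centromere, shared its only probe set with SLC35F6 and has no value here. KIFC1 and BIRC5 had 2 probe sets each, of which the brighter was used. KIF4A had a further probe set shared with KIF4B, which was not used.

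Gene expression was read from total RNA of MDA-MB-231, an established line of triple-negative breast cancer, in 10 groups of 4 cultures with 1 Affymetrix array of the Human Gene ST type each, 40 arrays in all. The cells grew in serum-containing medium, and the controls received the solvent. The agents were zoledronate, a bisphosphonate that blocks farnesyl diphosphate synthase, and fluvastatin, a statin that blocks HMG-CoA reductase, an earlier enzyme of the same mevalonate pathway. Each treated dish is compared with the control dish of the same lot, time and replicate number, which the design text pairs by day. In lot I, cells received solvent, zoledronate at 30 µM or fluvastatin at 2 µM, each for 12 h and for 24 h, and both agents share the control arrays of their time point. In lot II, cells received solvent or zoledronate at 100 µM for 24 h, and solvent or zoledronate at 30 µM for 48 h. Dose, time and lot therefore change together between some groups. Values are log2 signals, so a difference of -1 is a halving of the signal.

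Entry into mitosis is driven by cyclin B bound to the kinase CDK1, which the CDC25 phosphatases switch on. PLK1 and the Aurora kinases then act on centrosomes, spindle and kinetochores, the spindle checkpoint holds the anaphase promoting complex inactive until all chromosomes are attached, and CDC20 with that complex ends mitosis by marking cyclin B and securin for destruction. Most of these genes are transcribed late in the cell cycle. In resting cells the DREAM complex holds many of them down through a promoter element named CHR, and in G2 its MuvB core acts with MYBL2 and FOXM1 as an activator, often beside CCAAT boxes bound by NF-Y. The mRNA of such genes in bulk RNA therefore follows how many cells are cycling as well as how strongly each cell transcribes them, and in these data fewer cells in G2 and mitosis and less RNA per cell cannot be told apart.

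The promoters of 5 genes are shown because they belong to genes the results below turn on and carry these elements in different arrangements. They are the 150 bases before the annotated start in RefSeq, printed along the gene's own strand from 5′ to 3′, with CHR (TTTGAA or TTCGAA) and CCAAT matches of either strand in capitals, so that TTCAAA and ATTGG are the reverse-strand spellings.
PLK1 (GRCh38.p14, chr16:23678739-23678888, plus strand): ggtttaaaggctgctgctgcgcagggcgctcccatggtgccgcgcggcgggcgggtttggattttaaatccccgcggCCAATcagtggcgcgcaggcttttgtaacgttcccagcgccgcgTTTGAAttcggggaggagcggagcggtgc
HMMR (GRCh38.p14, chr5:163460482-163460631, plus strand): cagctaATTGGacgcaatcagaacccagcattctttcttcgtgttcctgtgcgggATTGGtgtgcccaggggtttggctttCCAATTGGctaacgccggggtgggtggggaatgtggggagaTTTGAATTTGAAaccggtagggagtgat
CDC20 (GRCh38.p14, chr1:43358831-43358980, plus strand): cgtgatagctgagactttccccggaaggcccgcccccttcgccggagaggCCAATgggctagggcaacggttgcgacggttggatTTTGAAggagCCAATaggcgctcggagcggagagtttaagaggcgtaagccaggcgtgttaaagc
MKI67 (GRCh38.p14, chr10:128126424-128126573, minus strand): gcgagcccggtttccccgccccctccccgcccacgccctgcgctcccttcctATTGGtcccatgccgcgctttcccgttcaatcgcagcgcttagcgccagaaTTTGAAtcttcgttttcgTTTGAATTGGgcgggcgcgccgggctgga
CCNB1 (GRCh38.p14, chr5:69167000-69167149, plus strand): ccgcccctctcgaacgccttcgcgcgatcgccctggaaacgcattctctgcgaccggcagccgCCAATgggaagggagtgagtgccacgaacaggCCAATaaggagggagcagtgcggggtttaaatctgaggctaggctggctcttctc
PLK1 has 1 CHR match following 1 CCAAT match. HMMR has 2 CHR matches side by side and 4 CCAAT matches. CDC20 has 1 CHR match between 2 CCAAT matches, MKI67 has 2 of each, and CCNB1 has 2 CCAAT matches and no CHR match in this stretch.

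RefSeq held promoter windows for 40 of the 49 genes, 50 windows of 300 bases in all (250 before to 50 after the start). A CHR match lay in 35 of the 50 windows (70%), against 16.4% of all 35116 windows. CCAAT lay in 74% of the members' windows and in 34.6% of all, and both in 58% against 6.38%. Of the 47 CHR matches, 25 lay within 100 bases before the start, with a median position of 28 bases before it over all 47. The 77 CCAAT matches lay further out by their median, 75 bases before the start, and 52 of them lay within the same 100 bases. A match describes letters in a window and not binding. No window was held for TPX2, AURKA, PBK, BUB3, TTK, BIRC5, UBE2C, RACGAP1 and FOXM1.

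**Figure D1:**
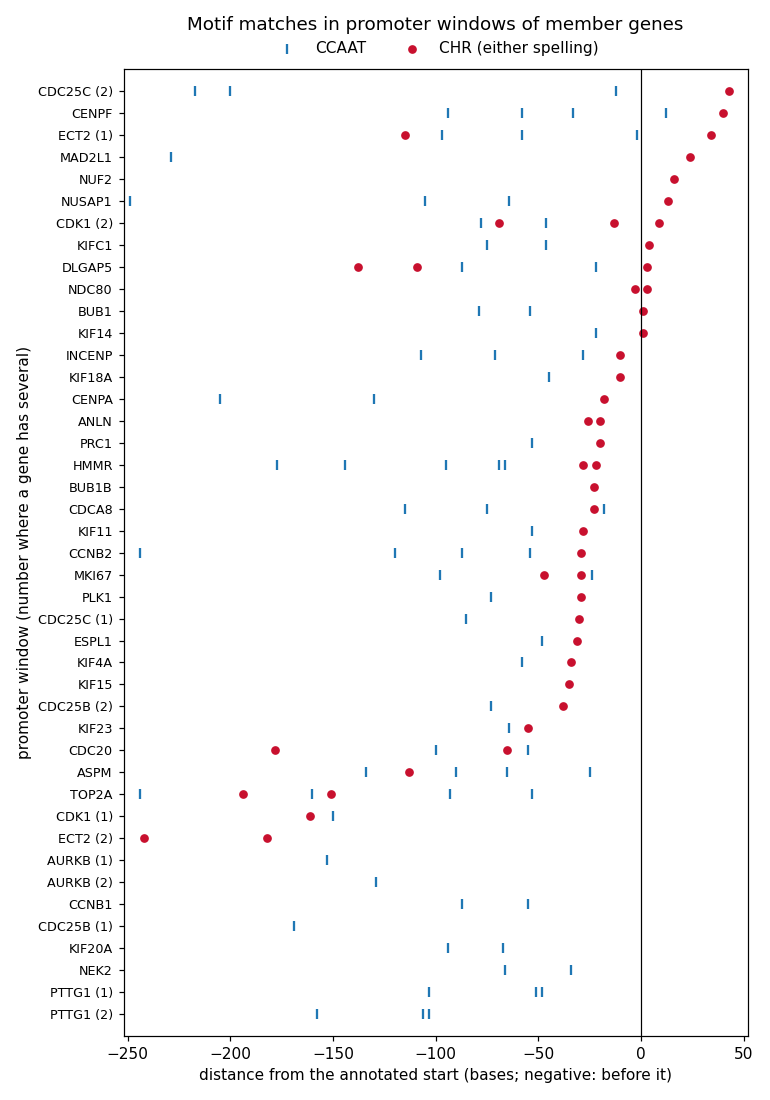
Positions of CHR (circles) and CCAAT (ticks) matches relative to the annotated start, in bases, in the 43 promoter windows of member genes that hold either motif. CHR matches lie nearer the start than CCAAT matches by their medians, 28 and 75 bases before it, and both are spread over the window.

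Before the results, 1 array has to be set apart. The array labelled zoledronate 30 µM, 48 h, replicate 2 had a median of 8.10 over the 48 genes, while the other 39 arrays lay between 9.43 and 10.3. It held the lowest value of all 40 arrays for 47 of the 48 genes, against 9.17% of all genes, and no other array held the lowest value for more than 1. Its array median of 6.31 was within the range of the others (6.19 to 6.33), but its mean correlation with the other arrays of its group, 0.984, was the lowest of the 40 (at least 0.990 elsewhere). The label gives no reason for it. Because limma estimates each gene's spread over all arrays together, this pair also enlarges the standard errors of these genes in the other comparisons. All results are therefore given from a fit to all 40 arrays (the full fit) and from the same fit without the 48 h replicate 2 pair (the reduced fit). In both, a gene is said to have risen or fallen where the Benjamini-Hochberg adjusted p over all 18417 genes was under 0.05.

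The labelled line was checked against its markers. VIM lay between 11.8 and 12.5 on all arrays, while ESR1 (4.45 to 5.33), PGR (4.21 to 5.00) and CDH1 (4.41 to 5.18) lay below the array medians on all arrays. ERBB2 (7.61 to 8.32) and EPCAM (7.29 to 9.09), also listed as low in this line, lay above the array medians (6.19 to 6.33). The 5 blood cell markers lay between 3.07 and 6.97 and the 7 fibroblast and endothelial markers between 3.16 and 7.47, with COL1A1 (7.06 to 7.47) above the array medians on all arrays.

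The clearest change was at 100 µM zoledronate for 24 h, where nearly all mitosis genes were lower than in the controls. The difference was below 0 for 45 of the 48 genes, with a median of -0.29, while the median over all genes was 0.012. In the full fit 13 fell (27.1% of the 48, against 16.6% of all genes) and 1 rose, CDC25B (2.08%, against 15.3% of all genes). In the reduced fit the differences were the same and the standard errors smaller, and 35 fell (72.9%, against 18.0% of all genes), again with CDC25B alone rising (16.6% of all genes rose). All 13 of the full fit were among the 35. The treated array was the lower in 4 of 4 pairs for 39 genes (23.4% of all genes), and for 28 genes all 4 treated arrays lay below all 4 controls (17.4% of all genes). The median difference over the 48 genes was -0.18, -0.24, -0.38 and -0.38 in pairs 1 to 4. Every pair was thus lower, pairs 3 and 4 more so than pairs 1 and 2.

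At 30 µM for 48 h the full fit gave 18 genes that fell (37.5%, against 4.43% of all genes), none that rose (3.16% of all genes), and a median of -0.46. All 48 differences were below 0, but the genes lower than their control numbered 46, 48, 29 and 19 in pairs 1 to 4. In the reduced fit several differences, among them those of AURKB, FOXM1 and CDC20, were above 0. The treated array was the lower in 4 of 4 pairs for 19 genes (10.1% of all genes), and for 4 genes all treated arrays lay below all controls (4.35% of all genes). The size of the differences rested on replicate 2, since the pair medians were -0.24, -1.73, -0.07 and 0.07. In the reduced fit 7 fell (14.6%, against 5.28% of all genes), 3 rose (6.25%, against 3.72%), and the median was -0.08. The 7 that fell, KIF18A, HMMR, PLK1, NUF2, CCNB1, CDCA8 and CENPE, were all among the 18. All 7 also fell at 100 µM in the reduced fit, where they were 20% of the 35. There 72.9% of the 48 genes fell, so much of this overlap goes with that share. In the full fit 7 genes fell in both comparisons, AURKA, CCNB1, CDCA8, KIF18A, KIF23, NUF2 and PLK1. They were 38.9% of the 18, where 27.1% of the 48 genes fell at 100 µM, and 53.8% of the 13, where 37.5% of the 48 fell at 48 h. When the 48 h arrays were fitted alone, with all 4 pairs, none of the 18 passed, and the adjusted p of KIF18A was 0.20 and that of HMMR 0.15. The comparisons at 48 h and at 100 µM share no array, but both take each gene's spread from the same fit.

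In lot I none of the 48 mitosis genes passed the threshold in the full fit with either agent. At 30 µM zoledronate no gene of the 18417 passed at 12 h or at 24 h with limma. An unadjusted p under 0.05 was found for 511 and 866 genes, none of them among the 48. The median over the 48 genes was 0.016 at 12 h and -0.041 at 24 h. The single differences ran from -0.08 to 0.11 at 12 h and from -0.15 to 0.027 at 24 h, with standard errors of 0.07 to 0.25. Fluvastatin at 2 µM changed 0.874% of all genes at 12 h and 10.5% at 24 h, none of them among the 48. The medians over the 48 genes were 0.044 and -0.038, and none of the 48 had an unadjusted p under 0.05. In the reduced fit there was no call among the 48 for zoledronate at 30 µM (0 of all genes) or for fluvastatin at 12 h (1.53% of all genes, with 3 of the 48 at an unadjusted p under 0.05), and 4 fell with fluvastatin at 24 h.

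**Figure D2:**
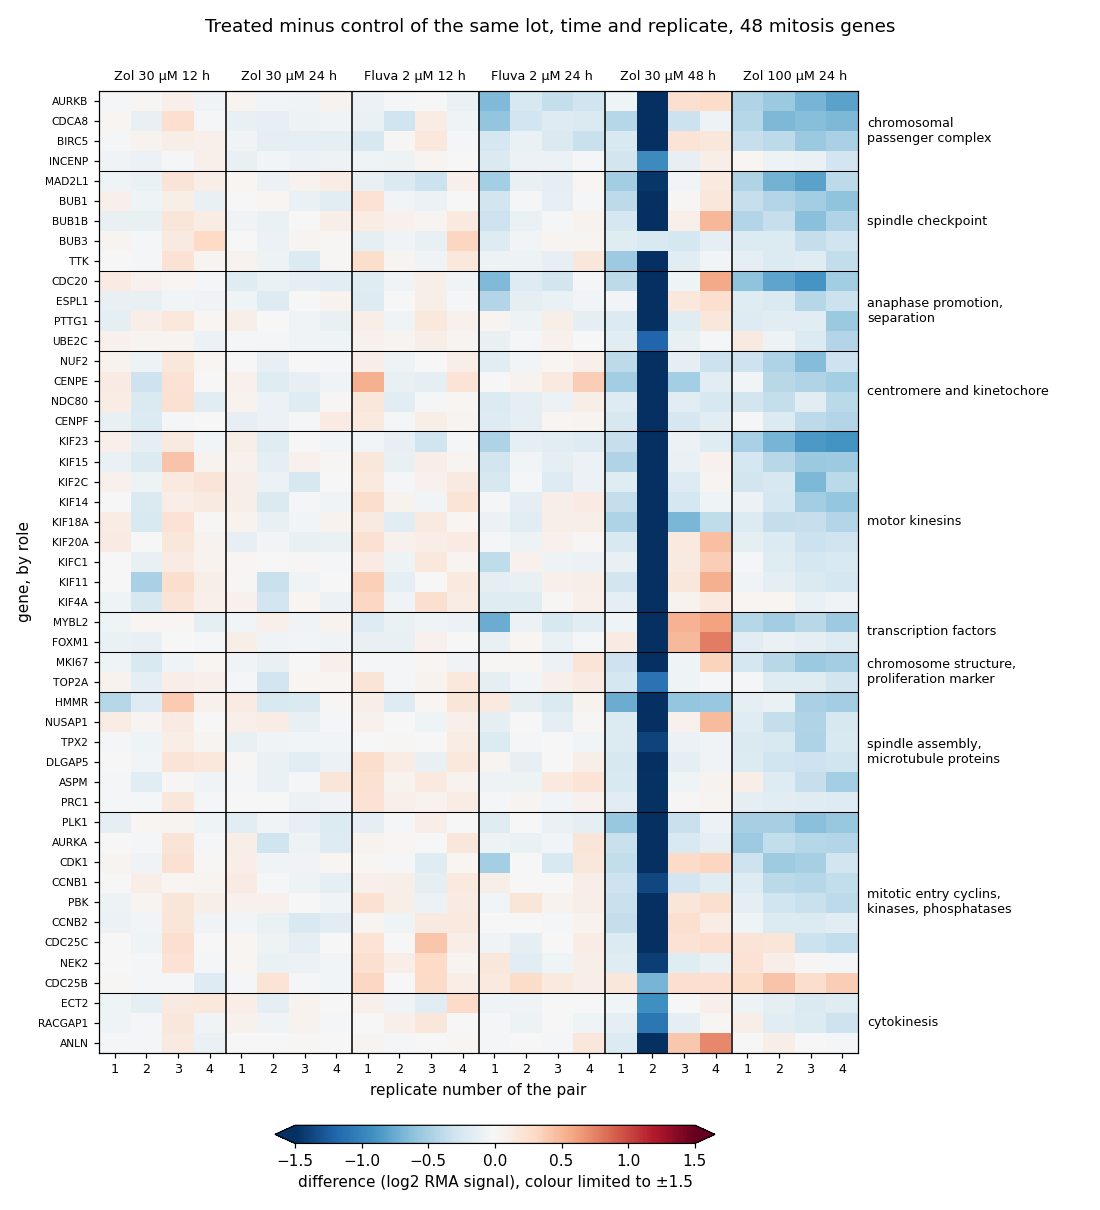
Treated minus control difference (log2 signal, colour) of 48 mitosis genes (rows, by role) in the 24 pairs (columns, 4 per comparison, by replicate number). The 100 µM columns are lower for nearly all genes with CDC25B higher, and the 48 h replicate 2 column is the lowest throughout except for BUB3.

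Among the 9 motor kinesins, 2 fell at 100 µM in the full fit and 6 in the reduced fit, and 4 and 1 fell at 48 h. KIF23, the centralspindlin kinesin that bundles midzone microtubules for cytokinesis, had the largest difference of the 48 genes at 100 µM. Its signal was 10.79, 10.72, 10.78 and 10.64 in the 24 h controls of lot II and 10.30, 10.03, 9.92 and 9.75 with 100 µM zoledronate. The groups did not overlap, and pair 1 differed the least. KIF23 fell 1.66-fold (log2 difference -0.73), with an SE of 0.16 and a limma adjusted p of 0.00079 in the full fit and an SE of 0.08 and an adjusted p of 3.8e-07 in the reduced fit.

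KIF18A, which dampens chromosome movements at the metaphase plate, was the kinesin of the 9 that fell at 48 h in both the full and the reduced fit. The 48 h controls had 8.45, 8.48, 8.21 and 8.37, and the treated arrays 7.99, 6.84, 7.52 and 7.98. Every treated array lay below every control, with replicate 2 lowest. The difference was -0.79 with an SE of 0.12 (limma adjusted p = 0.00048), or -0.51 with an SE of 0.08 (adjusted p = 0.00046) in the reduced fit. At 100 µM it was -0.34 (adjusted p = 0.037 and 0.00033). KIF15, a partner motor in keeping the spindle bipolar, KIF2C, a microtubule depolymerase, KIF14, a midbody kinesin, and KIF20A, a midzone kinesin, differed by -0.45, -0.40, -0.36 and -0.25 at 100 µM and fell in the reduced fit only. KIF11, the motor that pushes spindle poles apart, KIF4A, a chromokinesin, and KIFC1, a minus-end motor, had differences of -0.17, -0.03 and -0.17 there and did not pass in either fit. The other KIFC1 probe set gave -0.17 as well.

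Of the 6 spindle assembly proteins, all 6 fell at 100 µM in the reduced fit and none in the full fit. At 48 h 3 fell in the full fit and 1, HMMR, in the reduced fit. HMMR, a hyaluronan receptor that also binds spindle microtubules, had 7.38, 7.29, 7.14 and 7.06 in the 48 h controls and 6.64, 5.69, 6.56 and 6.49 with zoledronate. No treated array reached the lowest control, also when replicate 2 is left aside. The difference of -0.87, a 1.83-fold fall with an SE of 0.14 (limma adjusted p = 0.00051), became -0.63 with an SE of 0.12 (adjusted p = 0.0027) in the reduced fit. HMMR was thus the member with the largest difference at 48 h in both fits. At 100 µM the HMMR controls had 7.03, 6.94, 7.12 and 7.24 and the treated arrays 6.88, 6.84, 6.63 and 6.71, a difference of -0.32 (adjusted p = 0.08 and 0.022). TPX2, which activates AURKA on the spindle, NUSAP1 and PRC1, which bind and bundle microtubules, DLGAP5, a spindle stabiliser, and ASPM, a pole protein, differed by -0.17 to -0.31 at 100 µM.

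**Figure D3:**
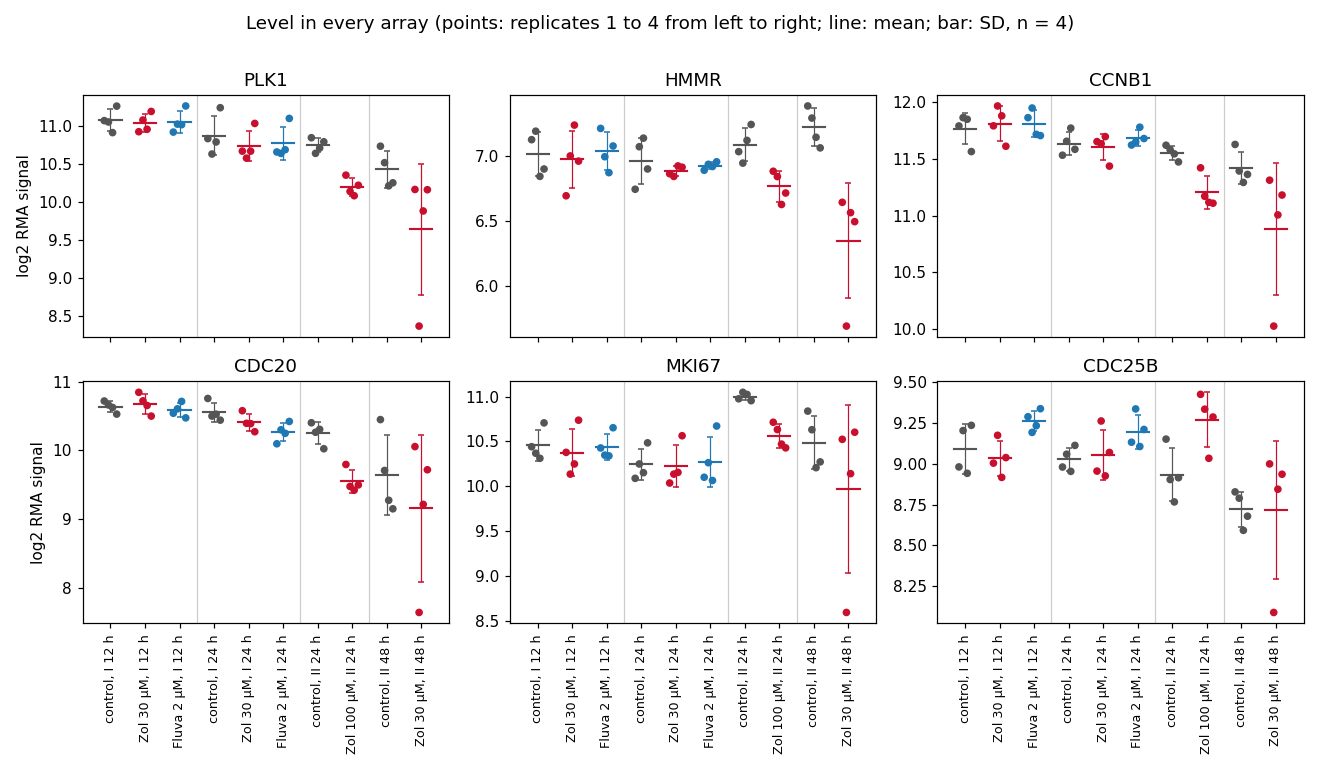
Log2 signal of 6 genes on every array, by group (lot I or II, 12, 24 or 48 h), with the group mean and SD of 4 arrays. At 100 µM the PLK1, HMMR, CCNB1, CDC20 and MKI67 points lie below their 24 h lot II controls while CDC25B is higher on average, and the lowest point at 48 h is replicate 2 in each panel.

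Among the 9 mitotic entry cyclins, kinases and phosphatases, CCNB1, PLK1 and AURKA fell at 100 µM in the full fit, PBK and CDK1 joined them in the reduced fit, and CDC25B rose in both. CCNB1, the cyclin that drives CDK1 into mitosis, had 11.62, 11.58, 11.54 and 11.47 in the controls and 11.42, 11.17, 11.12 and 11.11 at 100 µM. The highest treated array lay just under the lowest control. The difference was -0.35 with an SE of 0.12 (limma adjusted p = 0.022) or 0.06 (adjusted p = 3.9e-05). At 48 h the CCNB1 controls had 11.63, 11.39, 11.29 and 11.36 and the treated arrays 11.31, 10.03, 11.01 and 11.18. The replicate 1 array reached above the lowest control. Its difference of -0.54 (adjusted p = 0.0055) was -0.26 (adjusted p = 0.015) in the reduced fit.

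PLK1, the kinase that matures centrosomes and promotes mitotic entry, had 10.84, 10.64, 10.71 and 10.79 in the 24 h controls of lot II and 10.35, 10.14, 10.08 and 10.22 at 100 µM. The groups were well apart. The difference of -0.55, a 1.46-fold fall, had a limma adjusted p of 0.018 in the full fit and, with 2.5e-07, the smallest of the 48 genes in the reduced fit. At 48 h the PLK1 controls had 10.73, 10.52, 10.21 and 10.25 and the treated arrays 10.16, 8.36, 9.88 and 10.16. All treated arrays were below all controls, narrowly except for replicate 2. The difference was -0.79 (adjusted p = 0.0072), or -0.33 (adjusted p = 0.0048) in the reduced fit. AURKA, the centrosomal Aurora kinase, differed by -0.44 at 100 µM (adjusted p = 0.019 and 3.1e-05) and by -0.58 and -0.23 at 48 h, where only the full fit called it (adjusted p = 0.015 and 0.085).

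CDK1 itself, the kinase of mitotic entry, differed by -0.40 at 100 µM with an SE of 0.21 (limma adjusted p = 0.16) in the full fit and an SE of 0.11 (adjusted p = 0.005) in the reduced fit. CCNB2, NEK2 and CDC25C did not pass at 100 µM in either fit, with differences of -0.16, 0.08 and -0.08. CDC25C, a phosphatase that activates CDK1, had controls of 7.92, 7.69, 7.93 and 8.03 and treated arrays of 8.12, 7.87, 7.61 and 7.67, with replicates 1 and 2 higher than their controls and 3 and 4 lower.

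CDC25B, the phosphatase that starts CDK1 activation at the centrosome, was the exception of the set. The 24 h controls of lot II had 9.15, 8.90, 8.77 and 8.91, and the 100 µM arrays 9.43, 9.33, 9.03 and 9.29. The groups overlapped, with treated replicate 3 under control replicate 1, but the treated array was higher in 4 of 4 pairs. The rise of 0.34 was 1.26-fold, with a limma adjusted p of 0.013 in the full fit and 7.8e-05 in the reduced fit. At 48 h the controls had 8.83, 8.79, 8.59 and 8.68 and the treated arrays 9.00, 8.09, 8.84 and 8.94. Replicate 2 alone was lower than its control, and without that pair CDC25B rose by 0.23 (adjusted p = 0.038). With fluvastatin at 24 h it differed by 0.17 (adjusted p = 0.33 and 0.057).

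All 5 spindle checkpoint genes fell at 100 µM in the reduced fit, and MAD2L1, BUB3 and BUB1 in the full fit as well. MAD2L1, the inhibitor of CDC20 released from unattached kinetochores, had 9.73, 9.72, 9.77 and 9.56 in the controls and 9.28, 9.00, 8.97 and 9.17 at 100 µM. The groups did not overlap. The difference was -0.59 with an SE of 0.16 (limma adjusted p = 0.0046) or 0.10 (adjusted p = 7.4e-05). At 48 h it was -0.47 and -0.14, past the threshold in neither fit. BUB1 and BUB1B, the checkpoint kinase and its pseudokinase relative, differed by -0.48 and -0.46 at 100 µM. TTK, the kinase at the head of the checkpoint, differed by -0.23 there and was the only checkpoint gene called at 48 h, in the full fit alone (-0.62, adjusted p = 0.015, against -0.25, adjusted p = 0.091).

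BUB3, the adaptor that brings BUB1 and BUB1B to kinetochores, was the member that replicate 2 at 48 h touched least. Its 48 h controls had 11.65, 11.64, 11.62 and 11.64 and the treated arrays 11.47, 11.41, 11.36 and 11.49, and it was the gene of the 48 whose lowest array was not replicate 2. The treated arrays were all lower, yet the difference of -0.21 (limma adjusted p = 0.057) and of -0.20 in the reduced fit (adjusted p = 0.11) did not pass. At 100 µM the controls had 11.64, 11.62, 11.75 and 11.71 and the treated arrays 11.43, 11.42, 11.39 and 11.41. That difference of -0.27, with an SE of 0.07 in both fits, passed with an adjusted p of 0.0027 and 0.0024.

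Of the 4 kinetochore genes with a value, NUF2 fell at 100 µM in the full fit and all 4 in the reduced fit, and all 4 fell at 48 h in the full fit and NUF2 and CENPE in the reduced fit. NUF2, which with NDC80 forms the microtubule-binding arm of the kinetochore, had 10.48, 10.32, 10.45 and 10.20 in the controls and 10.17, 9.86, 9.80 and 9.88 at 100 µM. The highest treated array lay just below the lowest control. The difference was -0.43 (limma adjusted p = 0.011 and 8.5e-06), and at 48 h it was -0.60 (adjusted p = 0.0056) and -0.29 (adjusted p = 0.015) in the full and the reduced fit. CENPE, the kinesin that brings chromosomes to the plate, had 8.16, 7.76, 7.46 and 7.56 in the 48 h controls and 7.63, 5.83, 6.95 and 7.39 with zoledronate. The groups overlapped, since treated replicate 1 exceeded controls 3 and 4, but every treated array was below its own control. The CENPE difference was -0.79 (adjusted p = 0.0071) or -0.40 (adjusted p = 0.047). NDC80 and CENPF differed at 100 µM by -0.30 and -0.26.

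In the chromosomal passenger complex, which corrects faulty attachments, AURKB, CDCA8 and BIRC5 fell at 100 µM in both fits and INCENP, its scaffold, did not (-0.11, limma adjusted p = 0.45 and 0.15). AURKB, the kinase of the complex, had 10.11, 10.02, 10.12 and 10.14 in the controls and 9.66, 9.46, 9.42 and 9.34 at 100 µM. The gap between the groups was wider than the spread within either. The difference of -0.63 was 1.54-fold (adjusted p = 0.016 and 3.5e-07). At 48 h AURKB had 9.92, 9.84, 9.48 and 9.53 in the controls and 9.85, 7.94, 9.71 and 9.80 with zoledronate, so that replicates 3 and 4 were above their controls. Neither fit called it there (-0.36, adjusted p = 0.29, and 0.15, adjusted p = 0.31).

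CDCA8, borealin, had 8.85, 8.66, 8.65 and 8.67 in the controls and 8.41 in replicate 1 and 7.98 to 8.01 in the other replicates at 100 µM. All treated arrays lay below all controls. The difference was -0.61 (limma adjusted p = 0.0046 and 8.3e-07), and at 48 h it was -0.67 (adjusted p = 0.012) and -0.28 (adjusted p = 0.043). BIRC5, survivin, differed at 100 µM by -0.45 (adjusted p = 0.035 and 1.7e-05). Its second, dimmer probe set gave a mean difference of -0.30 ± 0.15 (SD, n = 4 pairs) there, against -0.45 ± 0.09 for the one used. The full-fit BIRC5 call at 100 µM was lost under 7 of 13 alternatives of processing. Among these were the mean of its probe sets, quantile normalization anew and leaving out any 1 replicate.

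Of the 4 anaphase regulators, CDC20 fell at 100 µM in both fits and ESPL1 (separase) and PTTG1 (securin) in the reduced fit, at -0.29 and -0.27. UBE2C, the ubiquitin-conjugating enzyme of the anaphase promoting complex, did not pass (-0.15). CDC20, the activator of that complex, had 10.40, 10.26, 10.30 and 10.02 in the controls and 9.80, 9.48, 9.42 and 9.50 at 100 µM. The groups did not overlap. The difference of -0.70, 1.62-fold, had an SE of 0.22 (limma adjusted p = 0.015) or 0.11 (adjusted p = 2.1e-05). At 48 h the CDC20 controls ran from 9.15 to 10.45 and the treated arrays from 7.65 to 10.05, and the direction differed between the fits (-0.49, adjusted p = 0.19, and 0.039, adjusted p = 0.91).

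The 3 cytokinesis genes had the smallest median difference of the roles at 100 µM (-0.15). ANLN, the scaffold of the contractile ring, ECT2, the exchange factor that activates RhoA there, and RACGAP1, the partner of KIF23 in centralspindlin, differed by 0.02, -0.15 and -0.15 at 100 µM. Only RACGAP1 fell, in the reduced fit (limma adjusted p = 0.043). ANLN had 11.19, 11.02, 11.07 and 11.08 in the controls and 11.20, 11.11, 11.08 and 11.06 at 100 µM, practically the same range. None of the 3 was called at 48 h in either fit.

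In the reduced fit, the effects on the transcription factors FOXM1 and MYBL2 differed between the 2 zoledronate conditions of lot II by the test given below. In the full fit they did not. FOXM1 had 10.34, 10.07, 10.09 and 10.27 in the 24 h controls and 10.17, 9.97, 9.95 and 10.08 at 100 µM, lower in every pair but overlapping, and did not pass (-0.14, limma adjusted p = 0.73 and 0.12). At 48 h FOXM1 had 10.12, 9.87, 9.34 and 9.44 in the controls and 10.24, 7.70, 9.83 and 10.21 with zoledronate. Replicates 1, 3 and 4 were higher than their controls and replicate 2 was far lower. The FOXM1 difference was -0.20 (adjusted p = 0.71) in the full fit and 0.46, with an adjusted p of 0.0011, in the reduced fit. It was larger in pairs 3 and 4 (0.49 and 0.77), whose controls were the lowest, than in pair 1 (0.12). MYBL2 had 9.61, 9.33, 9.36 and 9.47 in the 24 h controls and 9.18, 8.81, 8.95 and 8.92 at 100 µM, without overlap, a difference of -0.48 (adjusted p = 0.065 and 0.00028). At 48 h its difference was -0.12 (adjusted p = 0.8) and 0.36 (adjusted p = 0.041), with replicates 3 and 4 higher and replicates 1 and 2 lower than their controls.

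MKI67, which encodes the Ki-67 antigen used to score proliferation, had 10.97, 11.05, 11.02 and 10.95 in the controls and 10.71, 10.63, 10.47 and 10.43 at 100 µM. Every treated array was below every control. The difference of -0.44 had an SE of 0.20 (limma adjusted p = 0.098) in the full fit and 0.08 (adjusted p = 7.4e-05) in the reduced fit. TOP2A, the topoisomerase that untangles sister chromatids, differed by -0.17 (adjusted p = 0.3 and 0.053). At 48 h MKI67 was not called in either fit and TOP2A fell in the full fit only (-0.37, adjusted p = 0.044).

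**Figure D4:**
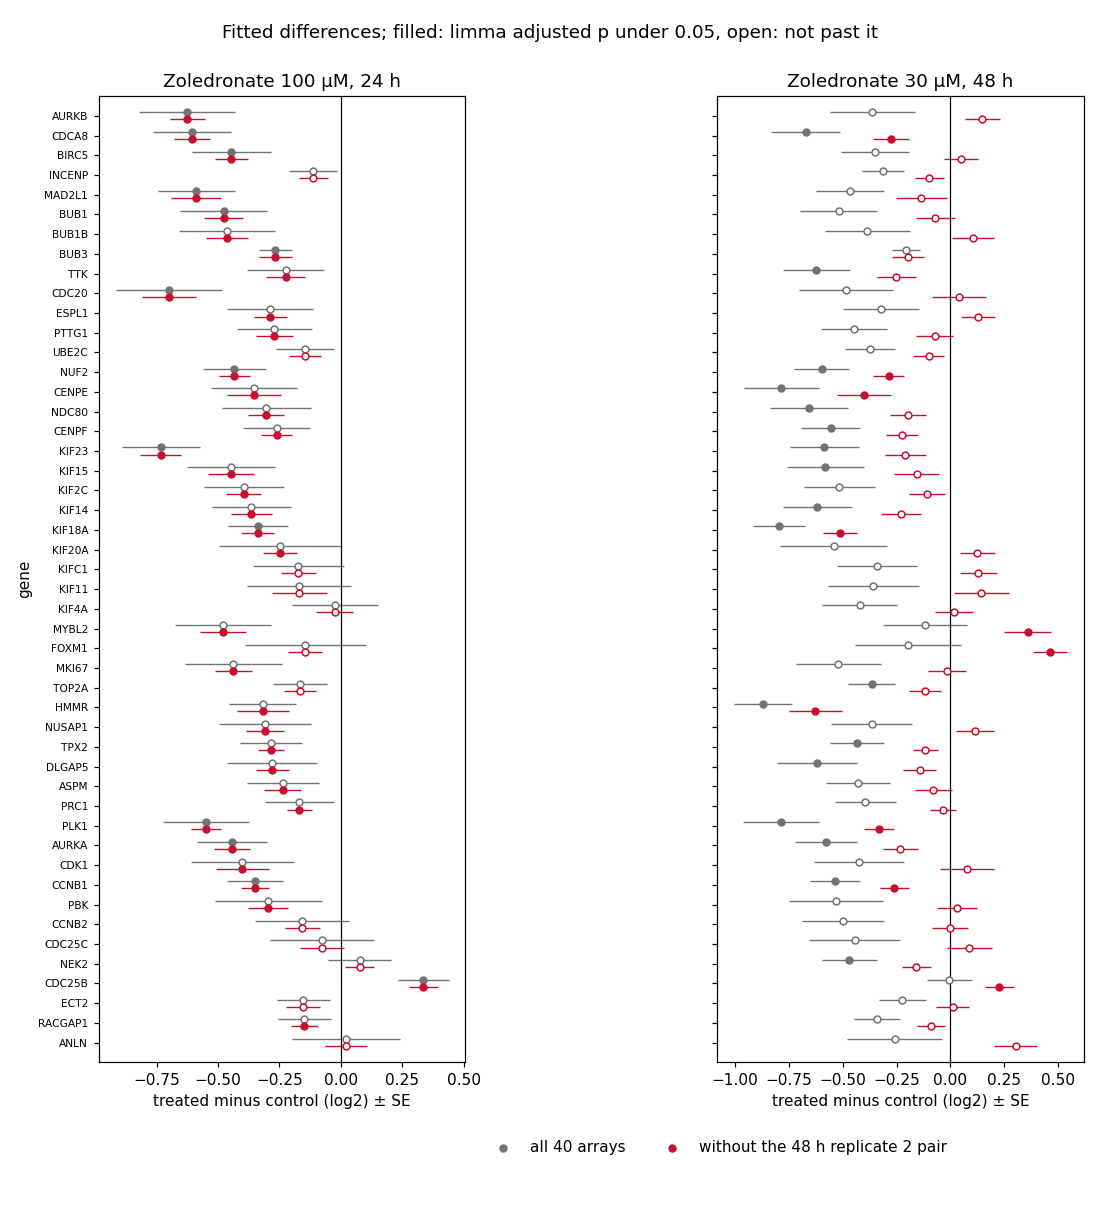
Fitted treated minus control difference (log2) with its SE for 48 mitosis genes at 100 µM for 24 h (left) and 30 µM for 48 h (right), from all 40 arrays (grey) and without the 48 h replicate 2 pair (red), filled where the adjusted p is under 0.05. At 100 µM the values coincide and 13 against 35 genes fell. At 48 h the 18 falls are smaller without the pair and 7 of them remain, while some other differences turn above 0.

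The differences between conditions were tested directly in the same fit. In the full fit no gene of the 48 differed between the 100 µM and the 48 h effect (8.23% of all genes did in either direction), and 4 had an unadjusted p under 0.05. In the reduced fit the difference from control was lower at 100 µM than at 48 h for 12 genes (25% of the 48, against 7.61% of all genes) and higher for none (7.05% of all genes). For most of the 12, FOXM1 and AURKB among them, the 48 h difference was itself above 0. The 12 were led by AURKB (-0.77, limma adjusted p = 0.00013), MYBL2 (-0.84, 0.00063 likewise) and FOXM1 (-0.61, 0.0007), with BIRC5 (-0.50), CDC20 (-0.74), BUB1B (-0.57), KIF23 (-0.52) and ESPL1 (-0.41) among them. HMMR and KIF18A, the genes with the largest 48 h differences, were not called as different (0.31, adjusted p = 0.24, and 0.17, adjusted p = 0.31). Dose and time both differ between these conditions.

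Against the 24 h effect of 30 µM zoledronate in lot I, the 100 µM effect was lower for KIF23 alone in the full fit (-0.70 with an SE of 0.22, limma adjusted p = 0.029). That was 2.08% of the 48 genes, against 11.1% of all genes, a share under the background. In the reduced fit it was lower for 21 genes (43.8%, against 13.4% of all genes), led by AURKB (-0.63), KIF23, CDCA8 (-0.52) and PLK1 (-0.41), and higher for CDC25B (0.31, adjusted p = 0.0083, against 10.7% of all genes). Dose and lot cannot be told apart in this contrast. Between 24 h and 48 h at 30 µM, the KIF18A effect was lower at 48 h in both fits (-0.78, adjusted p = 0.047, and -0.50, adjusted p = 0.019), against 0.288% and 1.44% of all genes. FOXM1 was higher at 48 h in the reduced fit (0.48, adjusted p = 0.025, against 0.662% of all genes). Time and lot change together there.

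With fluvastatin at 24 h the reduced fit called AURKB (-0.39, limma adjusted p = 0.0012), CDCA8 (-0.32, adjusted p = 0.0056), BIRC5 (-0.23, adjusted p = 0.029) and MYBL2 (-0.31, adjusted p = 0.03). Pair 1 differed most for AURKB (-0.66), CDCA8 (-0.59) and MYBL2 (-0.75, the other MYBL2 pairs being -0.09, -0.24 and -0.16). For BIRC5 pair 4 differed most (-0.33), and its second, dimmer probe set gave a mean difference of -0.13 ± 0.32 (SD, n = 4 pairs), an SD wider than the difference. These 4 are 8.33% of the 48 genes, against 5.23% of all genes that fell, so the share was not far from the background. CCNB1, PLK1, HMMR and MKI67 showed no such difference in either fit (0.05, -0.10, -0.04 and 0.03 in that order). Zoledronate at 30 µM and fluvastatin were compared at the same time on the same days. At 12 h none of the 48 genes differed in either fit (0.738% of all genes in the full and 1.4% in the reduced fit), with 1 and 4 of them at an unadjusted p under 0.05 by limma. At 24 h none differed in the full fit (7.23% of all genes), none having an unadjusted p under 0.05 either, and AURKB (0.39 higher with zoledronate, adjusted p = 0.0019), MYBL2 (0.32) and CDCA8 (0.23) were higher in the reduced fit (4.12% of all genes). Between 12 h and 24 h the fluvastatin effect differed past the threshold for none of the 18417 genes in either fit, with 0 and 4 of the 48 at an unadjusted p under 0.05. For 4 of the 48 genes all arrays with fluvastatin at 24 h lay below all controls (3.8% of all genes).

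Untreated cells of lot I had no gene past the threshold between 12 h and 24 h in either fit, and none of the 48 had an unadjusted p under 0.05 there. From 24 h to 48 h in lot II the median over the 48 genes changed by -0.21, with 44 of 48 lower, but only AURKB passed (-0.41 with an SE of 0.10, limma adjusted p = 0.049, against 0.646% of all genes), and none in the reduced fit (0.505% of all genes in either direction), where 19 had an unadjusted p under 0.05. The 48 h controls varied more, with medians over the 48 genes of 10.10, 9.82, 9.43 and 9.46, against 10.17, 10.04, 10.06 and 10.06 at 24 h. Controls 3 and 4 at 48 h were the low ones, and in those pairs fewer mitosis genes were lower with zoledronate (29 and 19 of 48, against 46 in pair 1). What part this spread has in the 48 h differences was not tested. Between the lots at 24 h, 9 genes were higher in lot II (18.8%, against 7.13% of all genes) and 2 lower (4.17%, against 10.0%), or 7 and 2 without the 48 h replicate 2 control (6.46% and 9.37% of all genes). MKI67 was 0.76 higher (adjusted p = 0.00075), ASPM 0.55, CDK1 0.51, CENPF 0.44 and ECT2 0.42, while UBE2C was 0.40 lower and PTTG1 0.41 lower. No source used here says whether both lots went through 1 normalization.

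The members varied together from pair to pair. Over the 24 pair differences the median correlation between 2 of the 48 genes was 0.886 (quartiles 0.818 and 0.920, 1128 gene pairs), and it was 0.571 (0.406 and 0.703) over the 23 pairs without 48 h replicate 2. No such correlation was computed for other genes, so it is not known whether these values are particular to the set. The pairs of lot I also share control arrays between agents, so the values describe the table only. KIF15 followed the mean of the other members most closely over the 23 pairs (r = 0.94), and CDC25B ran opposite to it (-0.47). NEK2 (0.17) and ANLN (0.34) followed it least among the rest. At 100 µM the median difference was -0.30 over 31 members with a CHR match and -0.35 over only 8 without. Of these, 21 and 7 fell in the reduced fit, and 8 and 2 in the full fit. CCNB1 has no TTTGAA or TTCGAA in the stretch shown above and fell at 100 µM, as did PLK1 and CDC20, which have a match. Other spellings of the element were not searched, so a gene without a match may still carry it. Whether the element plays a part was not tested.

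Another 123 genes of the same machinery, 120 of them measured, were looked at beside the 48. At 100 µM 56 fell (46.7%, against 16.6% of all genes) and 3 rose (2.5%, against 15.3%) in the full fit. Without the 48 h replicate 2 pair, 77 fell (64.2%, against 18.0%) and 4 rose (3.33%, against 16.6%), and the median was -0.28 in both. The counts by list that follow are from the full fit, to be read against the same 16.6% of all genes that fell. Kinetochore and centromere genes contributed 15 of 30 in the full fit, led by SKA3 (-1.01, limma adjusted p = 0.00025), a microtubule coupler, with CENPM at -0.59 and SKA2 at -0.43. Cyclin-associated genes contributed 8 of 14, among them CKS2 (-0.59, adjusted p = 7.8e-06) and CKS1B (-0.41), small subunits of the cyclin-dependent kinases, and WEE1 (-0.40), the kinase that restrains CDK1. Of 26 further spindle and cytokinesis genes 10 fell, led by KNSTRN (-0.47), KIF20B (-0.64) and DEPDC1B (-0.57), and NUMA1, a pole-focusing protein, rose by 0.20.

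Of 17 genes listed with the anaphase promoting complex 9 fell and 8 did not pass, and 13 were below 0. Those that fell include the scaffold subunit ANAPC1 (-0.69), the subunits ANAPC7 (-0.44) and CDC23 (-0.42), and the conjugating enzyme UBE2S (-0.68), which works with the complex. Condensin and cohesin genes contributed 7 of 19, including PDS5A (-0.32) and SMC3 (-0.27). Among 14 DREAM and MuvB regulators 7 fell and 2 rose. E2F4 (-0.42, limma adjusted p = 2e-05), the main E2F of DREAM, and LIN52 (-0.42), a MuvB subunit, fell, and RBL2 (0.59, adjusted p = 2.6e-05), the p130 pocket protein of DREAM in resting cells, and LIN37 (0.34), another MuvB subunit, rose.

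At 48 h 15 of the 120 fell in the full fit (12.5%, against 4.43% of all genes) and none rose (against 3.16%), led by DEPDC1 (-0.75, limma adjusted p = 0.0018) and BORA (-0.60), the activator of PLK1. In the reduced fit 5 fell (4.17%, against 5.28% of all genes, so no more than the background) and 9 rose (7.5%, against 3.72%), and 60 of 120 were below 0. DEPDC1 (-0.48) and BORA (-0.35) stayed among those that fell, and the kinetochore gene CENPI (0.87, adjusted p = 0.00071) and the tubulin genes TUBB4B (0.47) and TUBG1 (0.47) were among those that rose. With fluvastatin at 24 h 4 of the 120 fell in the full fit (3.33%, against 3.77% of all genes, a share at the background), E2F4 (-0.33, adjusted p = 0.0031), NCAPH2 (-0.37), CENPM (-0.43) and MAD1L1 (-0.19), and in the reduced fit 12 fell (10%, against 5.23% of all genes) and RBL2 rose (0.27, adjusted p = 0.027, against 8.48% of all genes).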

How the data were processed

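The authors' deposited values are log2 signals per probe set of 40 arrays, made with RMA in Affymetrix Power Tools 1.10.2, per the submitters' processing notes, which also name limma. The genome build, and whether both lots were normalized at once, is not given in the sources used here. Members and gene lists were chosen with earlier results of these data known.

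Of 33297 probe sets, 19460 had exactly 1 symbol, 1754 several and 12083 none listed, and 19429 matched RefSeq by gene number. Where a gene had several such probe sets (769 genes), the brightest stood for it. No filter on dim genes was used.

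limma 3.58.1 in R 4.3.3 was fitted to all 40 arrays with 16 blocks of lot, time and replicate and 6 treatment effects (18 residual degrees of freedom). The 16 control arrays were fitted by group. The design text states pairing by day of measurement. Deviations of treated and control arrays from their group means correlated in every lot I pair (0.17 to 0.60), but not in every pair at 48 h (-0.30 to 0.55) or at 100 µM (-0.09 to 0.26). The design text calls the replicates independent. The number of arrays limits the precision. The fit was tested on simulated data with noise drawn independently for each gene. No simulated pair stood apart as 48 h replicate 2 does, so that test does not bear on this pair. Genes were named by rank of p within each comparison, besides CCNB1, CDK1, HMMR, PLK1, AURKA, CDC20, CDC25C, BUB3, FOXM1, TOP2A and MKI67, and the remaining members are given by role. Levels of different genes are not comparable.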

Additional observations from a re-analysis of the deposited data

Results flagged for a closer look

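At 48 h, replicate 2 lay far from the other 3 pairs for CCNB1 (-1.37), HMMR (-1.60) and AURKA (-1.62), as it did for 19 of the 48 genes, all in that pair, against 5.92% of all genes with any 1 pair so far apart. Among the 24 h controls of lot II, replicate 1 stood apart by its median over the 48 genes (10.2), a gap small on the signal scale since the other 3 lay between 10.04 and 10.06. Chance sets about 1 in 20 groups of 4 apart in this way.

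The effect of zoledronate differed between conditions for KIF23 (100 µM minus 30 µM at 24 h, -0.70) and for KIF18A (48 h minus 24 h at 30 µM, -0.78), by limma's test of the difference, and both contrasts also differ in lot. Each was the only one of the 48 genes called in its contrast (2.08%), against 11.1% and 0.288% of all genes that were lower. The KIF23 contrast thus had a share under the background.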

How the results depend on the processing

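Leaving out the 48 h replicate 2 pair was planned for the 48 h comparison and chosen after seeing the data for the others. Counts are of mitosis genes called in either direction. At 48 h (18) the count was 7 with no replicate block, 9 with array weights, 0 when only the arrays compared were fitted, and 10 to 35 without 1 replicate (10 without replicate 2). Fitted on those arrays alone, HMMR had an adjusted p of 0.15. At 100 µM (14) it was 8 with no replicate block, 32 on the arrays compared alone, 7 after quantile normalization anew, 30 with array weights, 36 without the 48 h pair, and 5 to 10 without 1 replicate. KIF23, BUB3, CDCA8 and MAD2L1 were called at 100 µM under all 13 alternatives. With fluvastatin at 24 h (0) it was 1 with array weights and 4 without the 48 h pair.

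Zoledronate against fluvastatin at 24 h (0) gave 1 on the arrays compared and 1 with array weights, and 3 without the 48 h pair. The 100 µM against the 48 h effect (0) gave 1 after quantile normalization anew and 1 with a mean trend, 2 without dim genes, 3 with array weights, and 12 without replicate 2 of either lot II comparison or without the 48 h pair. The 100 µM against the 30 µM effect at 24 h (1) gave 0 with no replicate block, after quantile normalization and without any 1 replicate, 3 without dim genes or with a trend, 18 with array weights and 22 without the 48 h pair. The 48 h against the 24 h effect (1) gave 0 with no replicate block, 2 without dim genes, with a trend or with weights, and 0 to 2 without 1 replicate. Controls at 48 h against 24 h (1) gave 8 with a replicate block, 0 after quantile normalization, centring or without the 48 h pair, 2 without dim genes, and 0 to 15 without 1 replicate. Controls of lot II against lot I (11) gave 7 after centring and 6 to 11 without 1 replicate. The cause of these shifts was not tested.

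Leaving out 1 replicate moved the 48 h difference from -0.67 to 0.078 for CDK1, from -0.68 to 0.087 for CDC25C, from -0.84 to 0.039 for CDC20 and from -0.52 to 0.46 for FOXM1 (0.26 with array weights), above 0 only without replicate 2. Only genes called at 48 h and those named in every comparison were followed in this way. AURKB and MYBL2, outside that group, were also above 0 without replicate 2. At 100 µM CDC25C ran from -0.17 to 0.019, above 0 without replicate 3 or 4.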
